A study of Mus musculus with 16 samples.

Results

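The 9 genes Insr, Igf1r, Irs1, Irs2, Pik3ca, Pik3r1, Akt1, Akt2 and Foxo1 form the trunk of the insulin signalling pathway, and they were chosen by name among the 22894 genes that the arrays measured. They were carried by 15 probes, and all 15 were well above background on all 16 arrays. Each gene was read on its brightest probe, as the log2 of the probe's signal over the 75th percentile of its array, which is called the log2 signal here. Adipo-Pgam1 KO mice carry floxed Pgam1 alleles and Cre recombinase under the adiponectin promoter (Adipoq-Cre), which is active in adipocytes, and the littermate controls, which the labels call wild-type, carry the floxed alleles without Cre. BAT (brown adipose tissue) and gWAT (gonadal white adipose tissue) were taken from male C57BL/6NCrSlc mice of both genotypes, with 4 arrays in each of the 4 groups. All mice were 16 weeks old except replicate 4 of each Adipo-Pgam1 KO group, at 14 weeks.

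Insulin and insulin-like growth factors bind receptor tyrosine kinases, which phosphorylate the adaptor proteins Irs1 and Irs2. These adaptors recruit phosphoinositide 3-kinase (PI3K), a catalytic subunit bound to a regulatory one, and the lipid it makes brings Akt to the membrane, where it is activated. Akt then phosphorylates Foxo1, which keeps this transcription factor out of the nucleus, and in adipocytes the pathway drives glucose uptake and restrains lipolysis.

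In BAT, Pgam1 was lower in Adipo-Pgam1 KO mice by 1.74 on the log2 scale, with a log2 change of -1.74 (limma, adjusted p = 1.11e-05). In gWAT it was higher by 0.95 in the arrays labelled Adipo-Pgam1 KO (limma, adjusted p = 0.0140), so the targeted gene went against the label there. With slide as a block it was 0.75 higher and did not pass. Groups in gWAT are named here by that label. The 75th percentile of signal ran from 401.3 to 451.3 on control BAT arrays and from 650.2 to 916.2 on KO BAT arrays, and from 50% to 62.2% of spots were well above background. In each tissue, 3 controls lay on another slide than the KO arrays, which shared their slide with 1 control. The 6 adipocyte markers were well above background on all 16 arrays, and so were the 7 brown adipocyte markers on all BAT arrays. In gWAT of controls 4 of the 7 brown markers were, Ucp1 was on none of the controls and on 3 of the 4 KO-labelled arrays, and no marker of the 4 for epididymis was on all arrays of a gWAT group.

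Promoter sequence was found for 8 of the 9 genes in RefSeq (GRCm38.p6), as windows from 250 bases before to 50 bases after a transcription start, with 13 windows in all. Both strands were searched for the FoxO motif TGTTTAC, the core of the insulin response element CAAAACA, the CREB core TGACG and the E-box CACGTG. These motifs were held by 3.65%, 6.28%, 20.8% and 7.15% of all 32851 windows, respectively. The 2 adaptor genes are shown because each holds an E-box and an insulin response element core (TGTTTTG as printed) in the same window, as did 0.408% of all windows. The plan named single motifs and not this pair, so the share of the pair is a description and no measure of rarity. The start of Akt1 with the FoxO motif, the only one of the 13 windows to hold it, is shown because Foxo1 lies below Akt in the pathway. The 250 bases before the start are given 5′ to 3′ along the gene's strand, and capitals mark the motifs.
Irs1 (chr1:82291440-82291689, minus strand): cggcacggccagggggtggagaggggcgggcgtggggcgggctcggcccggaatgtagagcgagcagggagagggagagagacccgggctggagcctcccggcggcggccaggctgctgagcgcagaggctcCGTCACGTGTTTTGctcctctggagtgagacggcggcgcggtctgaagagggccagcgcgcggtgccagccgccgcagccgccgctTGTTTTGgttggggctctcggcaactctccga
Irs2 (chr8:11008930-11009179, minus strand): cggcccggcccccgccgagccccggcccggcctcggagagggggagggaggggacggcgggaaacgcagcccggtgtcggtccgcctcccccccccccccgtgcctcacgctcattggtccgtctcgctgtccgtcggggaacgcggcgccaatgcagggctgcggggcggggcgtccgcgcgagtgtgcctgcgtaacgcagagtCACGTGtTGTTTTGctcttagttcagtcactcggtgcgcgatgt
Akt1 (chr12:112674885-112675134, minus strand): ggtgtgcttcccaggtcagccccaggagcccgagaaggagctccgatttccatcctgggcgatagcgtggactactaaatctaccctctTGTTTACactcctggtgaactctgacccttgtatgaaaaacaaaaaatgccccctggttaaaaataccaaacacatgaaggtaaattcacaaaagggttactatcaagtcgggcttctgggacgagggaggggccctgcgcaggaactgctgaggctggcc
In Irs1 the E-box spans bases -115 to -110 from the start. It shares bases with a CREB core at -118 to -114 and with the first of the insulin response element cores, at -111 to -105, while another core lies at -32 to -26. In Irs2 the E-box spans -44 to -39, and the core follows at -37 to -31. In Akt1 the FoxO motif spans -161 to -155. The windows of Igf1r, Pik3ca and Foxo1 held no match to these letters, and a match describes the sequence and is not a bound site. Insr is named only.

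In BAT, 4 of the 9 genes were past the threshold of an adjusted p of 0.05 in limma, against 61.4% of the 14267 genes tested. Foxo1, Akt2 and Insr were lower in Adipo-Pgam1 KO mice, where 33.9% of all genes tested were called lower, and Igf1r was higher, where 27.5% were. The 9 genes had a median log2 change of -0.42, and all genes tested had one of -0.081. In gWAT, 6 of the 9 were past the threshold, against 17.9% of the 14137 genes tested. Insr, Irs1, Irs2, Pik3ca and Pik3r1 fell on the KO-labelled arrays, against 7.86% of all genes tested, and Akt1 rose, against 10%. The median was -0.55 for the 9 genes and 0.0473 for all genes. The share of higher genes among all genes called depended on the scaling: it was 44.8% in BAT and 80.1% when arrays were scaled by spike-in controls, and 56.0% in gWAT against 93.3% with spike-in controls and 71.1% with arrays centred on their medians. Spike-in scaling called 2 of the 9 genes higher and 2 lower in BAT, against 6507 higher and 1613 lower of the 14267 genes tested. In gWAT it called 1 higher and 3 lower, against 4803 higher and 347 lower of the 14137 genes tested. Quantile normalization called 7 of the 9 lower in gWAT and none higher, against 1598 lower and 1584 higher of those 14137. Insr alone passed in the same direction in both tissues, and the difference between the tissues is given for each gene with its own test. In bulk tissue, fewer cells of a type and less RNA per cell cannot be told apart.

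**Figure D1:**
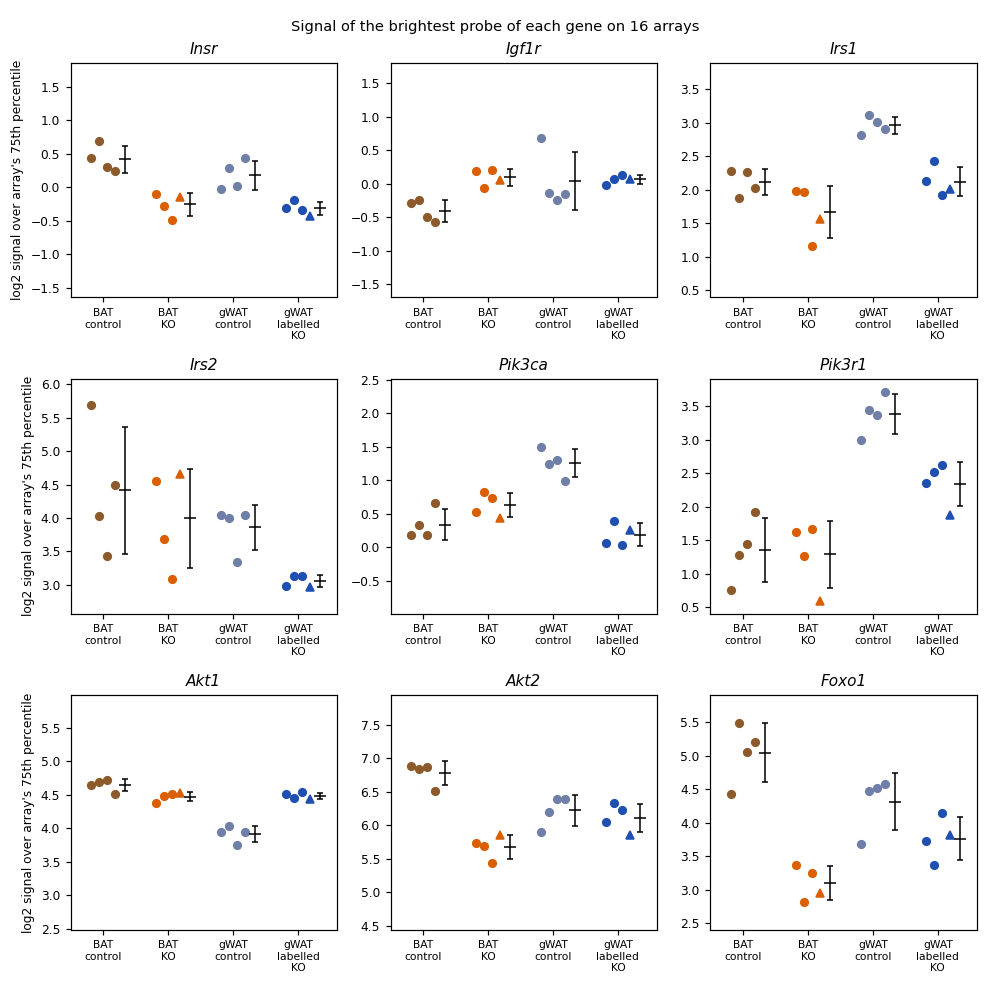
Log2 signal of the brightest probe of each gene over the 75th percentile of its array (vertical axis, 3.5 log2 units in each panel) in the 4 groups of 4 arrays. Circles are arrays at an age of 16 weeks and triangles arrays at 14 weeks, and the bar beside each group is the mean with the SD. Akt2 and Foxo1 separate the genotypes in BAT, and Pik3ca, Pik3r1, Irs1, Irs2 and Akt1 separate the gWAT groups.

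At the head of the pathway, the 2 receptor genes moved in opposite directions in BAT. Insr encodes the insulin receptor. In BAT, its log2 signal was 0.44, 0.69, 0.30 and 0.24 on the 4 control arrays, and -0.10, -0.29, -0.48 and -0.15 on the 4 Adipo-Pgam1 KO arrays. Every KO array was below every control, and the log2 change was -0.67 (standard error 0.13, limma, adjusted p = 0.00231), or 0.627 times the control level. In gWAT, Insr stood at -0.02, 0.29, 0.02 and 0.43 in controls and at -0.32, -0.19, -0.34 and -0.42 in the arrays labelled Adipo-Pgam1 KO. The groups again did not overlap, and the log2 change was -0.50 (standard error 0.14, limma, adjusted p = 0.0410). The other Insr probe gave -0.47 in BAT and -0.58 in gWAT, both past the threshold. The gWAT call was lost in 12 of 20 alternatives with the direction unchanged, among them without any 1 array other than control replicate 1. The change of Insr differed between the tissues by 0.18 (interaction, limma, adjusted p = 0.462). Under spike-in scaling Insr was -0.14 in BAT (limma, adjusted p = 0.528).

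Igf1r encodes the receptor for insulin-like growth factors, which is close to the insulin receptor in structure. Its log2 signal in BAT was -0.28, -0.25, -0.50 and -0.58 in controls and 0.20, -0.06, 0.21 and 0.05 in Adipo-Pgam1 KO mice. All KO arrays lay above all controls, and Igf1r rose by 0.50 (standard error 0.11, limma, adjusted p = 0.00490), or 1.42 times the control level. The other probe of Igf1r gave 0.41 and just missed the threshold (limma, adjusted p = 0.0505). In gWAT, controls read 0.68, -0.13, -0.25 and -0.15, and the arrays labelled Adipo-Pgam1 KO read -0.02, 0.07, 0.14 and 0.07. Control replicate 1 stood far above the other controls, the log2 change was 0.03 (limma, adjusted p = 0.943), and without that array it was 0.24. The other probe gave -0.47 in gWAT, also short of the threshold. Between the tissues, the Igf1r change differed by -0.47 (interaction, limma, adjusted p = 0.117).

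Of the adaptors, neither passed in BAT and both fell in gWAT. Irs1, which binds the activated receptor, read 2.28, 1.88, 2.27 and 2.02 in BAT of controls and 1.98, 1.97, 1.17 and 1.56 in Adipo-Pgam1 KO mice. These groups overlapped, and the log2 change was -0.44 (standard error 0.20, limma, adjusted p = 0.0789). Without KO replicate 1 it was -0.55 and passed (limma, adjusted p = 0.0496). In gWAT, Irs1 read 2.83, 3.12, 3.01 and 2.91 in controls and 2.14, 2.43, 1.93 and 2.01 in the arrays labelled Adipo-Pgam1 KO. It was lower on each of those arrays than on any control, by a log2 change of -0.84 (standard error 0.14, limma, adjusted p = 0.00877), or 0.558 times the control level.

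Irs2, an adaptor also prominent in liver, varied widely in BAT. Controls read 5.69, 4.04, 3.44 and 4.50, and Adipo-Pgam1 KO mice read 4.55, 3.69, 3.09 and 4.66, so the groups overlapped over most of their range. The log2 change was -0.42 (standard error 0.51, limma, adjusted p = 0.499), and without control replicate 1, the highest BAT array, it was 0.005. In gWAT, controls read 4.05, 4.0, 3.35 and 4.05 and the arrays labelled Adipo-Pgam1 KO read 2.98, 3.13, 3.13 and 2.97. The groups did not overlap although control replicate 3 lay well below the other controls, and Irs2 fell by 0.81 (standard error 0.18, limma, adjusted p = 0.0188). This call was lost in 8 of 19 alternatives, among them without gWAT control replicate 2 (limma, adjusted p = 0.0553) and without labelled KO replicate 1 (limma, adjusted p = 0.0539). The changes of Irs1 and Irs2 differed between the tissues by -0.40 and -0.39, neither past the threshold (interaction, limma, adjusted p = 0.202 and 0.608).

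Both PI3K genes fell in gWAT, and for both the change differed between the tissues. Pik3ca encodes a catalytic subunit of PI3K. In BAT it read 0.19, 0.34, 0.18 and 0.66 in controls and 0.53, 0.83, 0.75 and 0.44 in Adipo-Pgam1 KO mice, with overlap and a log2 change of 0.30 (standard error 0.14, limma, adjusted p = 0.101). With slide as a block this value was -0.02, and under spike-in scaling it was 0.83 and passed (limma, adjusted p = 0.0121). Without control replicate 4 it was 0.40 and passed too (limma, adjusted p = 0.0235). In gWAT it read 1.51, 1.25, 1.31 and 0.99 in controls and 0.06, 0.39, 0.04 and 0.27 in the arrays labelled Adipo-Pgam1 KO. The lowest control was above the highest labelled KO array, and the log2 change was -1.07 (standard error 0.15, limma, adjusted p = 0.00430), or 0.475 times the control level. The change of Pik3ca in gWAT was -1.37 relative to that in BAT (interaction, standard error 0.20, limma, adjusted p = 1.21e-04).

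Pik3r1 encodes the main regulatory subunit, which holds the catalytic subunit stable and inactive until adaptors bind. In BAT its signal was 0.76, 1.27, 1.44 and 1.92 in controls and 1.63, 1.26, 1.67 and 0.59 in Adipo-Pgam1 KO mice. The groups overlapped over most of their range, and the log2 change was -0.06 (standard error 0.30, limma, adjusted p = 0.872). In gWAT, controls read 2.99, 3.45, 3.37 and 3.71, and the arrays labelled Adipo-Pgam1 KO read 2.35, 2.52, 2.62 and 1.87. Pik3r1 was lower on all of the latter, by a log2 change of -1.04 (standard error 0.21, limma, adjusted p = 0.0146). The interaction was -0.98 (limma, adjusted p = 0.0484) and was lost in 17 of 29 alternatives.

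Akt2 fell in BAT, and Akt1 rose in gWAT on its brightest probe. Akt1 encodes the isoform found in most tissues. In BAT its brightest probe read 4.64, 4.69, 4.72 and 4.52 in controls and 4.38, 4.49, 4.51 and 4.53 in Adipo-Pgam1 KO mice, a log2 change of -0.17 (standard error 0.089, limma, adjusted p = 0.132) that turned to 0.11 under quantile normalization and to 0.37 under spike-in scaling. In gWAT it read 3.94, 4.03, 3.75 and 3.95 in controls and 4.51, 4.46, 4.54 and 4.43 in the arrays labelled Adipo-Pgam1 KO. All of the latter were higher, by 0.57 (standard error 0.11, limma, adjusted p = 0.0143), or 1.48 times the control level. This rise of Akt1 rests on 1 probe. The other Akt1 probe gave -0.15 in gWAT (limma, adjusted p = 0.662) and 0.24 in BAT (limma, adjusted p = 0.444). Quantile normalization also took the gWAT change of Akt1 to 0.41 (limma, adjusted p = 0.0546). The interaction was 0.73 with the brightest probe (limma, adjusted p = 3.05e-04) and -0.39 with the other, which did not pass. With the brightest probe under quantile normalization it was 0.30 and did not pass either (limma, adjusted p = 0.111).

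Akt2 encodes the isoform that carries most of the insulin signal to glucose uptake in adipocytes. In BAT it read 6.89, 6.84, 6.87 and 6.51 in controls and 5.74, 5.69, 5.43 and 5.85 in Adipo-Pgam1 KO mice. Every KO array was below every control, and Akt2 fell by 1.1 (standard error 0.13, limma, adjusted p = 1.34e-04), or 0.467 times the control level. Under spike-in scaling the change was -0.57 and still passed (limma, adjusted p = 0.0107). The other 2 probes of Akt2 gave -1.07 and -1.06 in BAT. In gWAT the values were 5.90, 6.20, 6.39 and 6.40 in controls and 6.05, 6.33, 6.24 and 5.85 in the arrays labelled Adipo-Pgam1 KO. The groups overlapped, and the log2 change was -0.11 (standard error 0.16, limma, adjusted p = 0.679). The direction of Akt2 in gWAT was not settled, since the other 2 probes gave 0.19 and 0.28, and quantile normalization gave -0.36 for the brightest probe (limma, adjusted p = 0.0308). The Akt2 change in gWAT less that in BAT was 0.99 with the brightest probe (interaction, limma, adjusted p = 0.00137). With the other 2 probes it was 1.26 and 1.34 (limma, adjusted p = 1.91e-04 and 1.11e-04). Under quantile normalization the brightest probe gave 0.37 (limma, adjusted p = 0.0564).

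Foxo1 encodes the transcription factor that Akt holds in the cytoplasm, and it had the largest fall of the 9 genes in BAT. It read 4.43, 5.48, 5.06 and 5.20 in BAT of controls and 3.37, 2.82, 3.24 and 2.95 in Adipo-Pgam1 KO mice. The lowest control, replicate 1, was still above the highest KO array, and the log2 change was -1.95 (standard error 0.23, limma, adjusted p = 1.25e-04), or 0.259 times the control level. The other Foxo1 probe gave -1.85 in BAT. In gWAT it read 3.67, 4.47, 4.52 and 4.57 in controls and 3.72, 3.37, 4.14 and 3.81 in the arrays labelled Adipo-Pgam1 KO. Control replicate 1 lay within the range of the labelled KO arrays, and the log2 change was -0.55 (standard error 0.24, limma, adjusted p = 0.143). Without that control the change of Foxo1 in gWAT was -0.76 (limma, adjusted p = 0.036). The fall in BAT was the larger by 1.40 (interaction, standard error 0.35, limma, adjusted p = 0.00427).

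**Figure D2:**
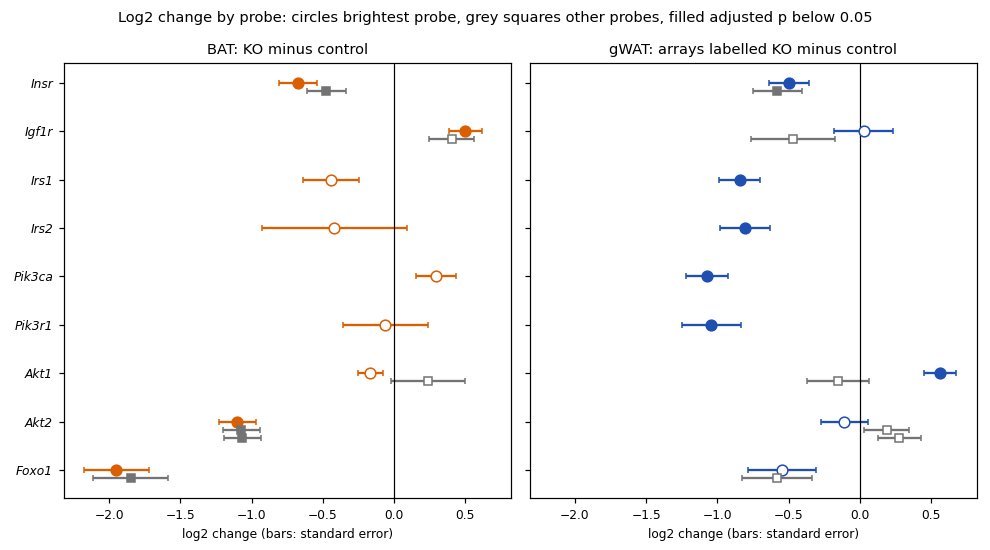
Log2 change with its standard error (horizontal axis) for every probe of the 9 genes (vertical axis) in BAT and gWAT; circles are the brightest probe, grey squares the other probes, and filled symbols have an adjusted p below 0.05. The probes of Akt2 and Foxo1 lie together in BAT, whereas the 2 Akt1 probes lie on opposite sides of 0 in gWAT.

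The 5 genes with a difference between the tissues were Pik3ca, Pik3r1, Akt1, Akt2 and Foxo1, against 48.3% of the 14807 genes tested for the interaction. The difference, gWAT less BAT, was positive for Akt1, Akt2 and Foxo1, as for 27.4% of all genes, and negative for both PI3K genes, as for 21%. For single genes the exact two-sided permutation test gave p = 0.0286 wherever 4 arrays did not overlap 4, the smallest p that this number of arrays allows. The groups did not overlap for 4 of the 9 genes in BAT, against 57.1% of all genes tested, and for 6 of the 9 in gWAT, against 24.2%. With slide as a block in the fit, which compares the KO arrays with the 1 control on their slide, Foxo1, Akt2 and Igf1r in BAT gave -2.11, -0.83 and 0.68 and stayed past the threshold. Insr in BAT gave -0.49 and did not (limma, adjusted p = 0.0812). In gWAT, the same block left none of the 9 genes past the threshold, where 1.30% of all genes tested passed. The values of the 6 genes called without it were -0.75 for Insr, -0.79 for Irs1, -0.99 for Irs2, -0.80 for Pik3ca, -1.37 for Pik3r1 and 0.53 for Akt1. Adjusted p-values then lay between 0.0906 and 0.195. Spike-in scaling, which moved the median of all genes up, gave 1.03 for Igf1r in BAT, and in gWAT -0.15 for Insr, -0.49 for Irs1, -0.46 for Irs2, -0.69 for Pik3r1 and 0.92 for Akt1, of which Insr and Irs2 did not pass.

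**Figure D3:**
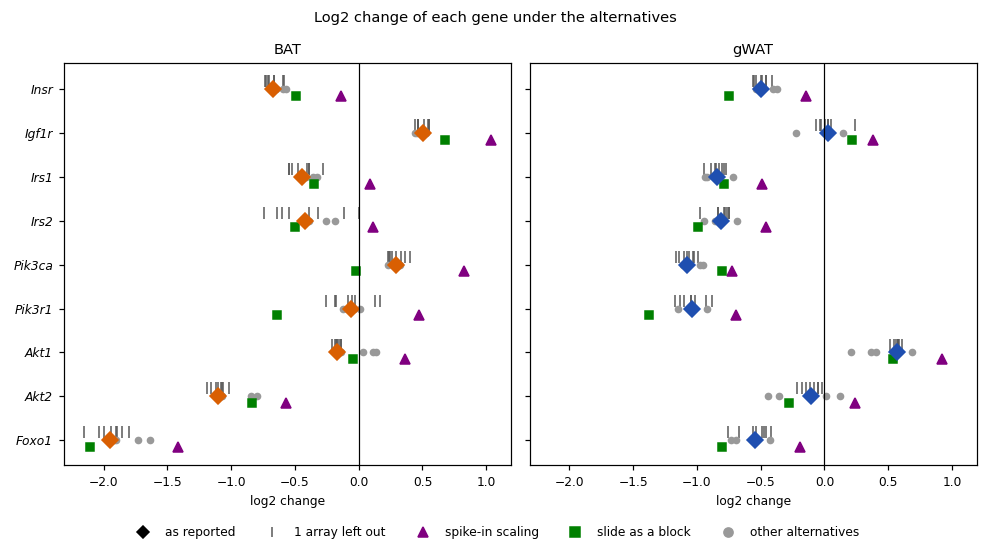
Log2 change of each gene (horizontal axis) on its brightest probe in BAT and gWAT as reported (diamonds), with 1 array left out (ticks), with spike-in scaling (triangles), with slide as a block (squares) and under the other alternatives (grey circles). Foxo1 and Akt2 stay below 0 in BAT under all settings shown, and the triangles lie to the right of the diamonds for all 9 genes.

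Markers of adipocytes and of other cell types were read on the same arrays. In BAT of Adipo-Pgam1 KO mice, all 6 adipocyte markers were lower and past the threshold, and their summed level on the log2 scale was 11.16 to 11.29 in controls and 9.55 to 10.02 in KO mice. The brown adipocyte list was lower in 6 of 7, the macrophage list was higher in 6 of 7 and the list for fibroblasts and stromal progenitors in 5 of 5. The summed level of the macrophage markers was 4.79 to 5.24 in controls and 6.46 to 7.01 in KO mice, and that of the fibroblast markers was 6.75 to 6.88 and 7.22 to 7.62. In gWAT, 4 of the 5 brown markers tested were higher, with summed levels of 4.73 to 5.96 in controls and 6.98 to 8.36 in the arrays labelled Adipo-Pgam1 KO. Of the adipocyte list 1 of 6 was lower there, and of the macrophage list 1 of 7 was higher. The 7 skeletal muscle markers summed to 1.72 to 4.61 in gWAT of controls and to 4.89 to 5.86 in the labelled KO arrays. That sum follows Acta1, whose mean was 3.28 in controls and 5.48 in the labelled KO arrays. The means of Tnnt3, Mylpf and Actn3 were lower in the latter. None of the 4 tested passed the threshold, and their median log2 change was -0.22. Under spike-in scaling 5 of the 6 adipocyte markers were called lower in BAT, and 7 of 7 macrophage and 5 of 5 fibroblast markers higher. The part of these cell types in the values of the 9 genes was not tested.

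In the controls alone, 6 of the 9 genes differed between gWAT and BAT, against 64.7% of the 14291 genes tested, with 3 higher in gWAT (29.3% of all genes) and 3 lower (35.4%). The groups did not overlap for 6 of the 9, Igf1r among them, against 60.8%. Pik3r1 was higher in gWAT by 2.03 (standard error 0.25, limma, adjusted p = 1.53e-04), or 4.09 times its level in BAT, and Pik3ca by 0.92 and Irs1 by 0.85 (limma, adjusted p = 9.05e-04 and 5.17e-04). Akt1 was lower in gWAT by 0.72, with a log2 difference of -0.72 (limma, adjusted p = 4.23e-04), and Akt2 and Foxo1 had differences of -0.55 and -0.74 (limma, adjusted p = 0.0109 and 0.0409). The Akt2 difference changed sign to 0.10 under quantile normalization and was -0.35 with slide as a block (limma, adjusted p = 0.228), whereas the other 2 Akt2 probes gave -1.09 and -1.02. The other Akt1 probe gave 0.23, short of the threshold. The Foxo1 groups overlapped, and its call was lost in 14 of 21 alternatives. Insr, Igf1r and Irs2 had differences of -0.24, 0.44 and -0.55 and did not pass (limma, adjusted p = 0.197, 0.0971 and 0.286).

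Read as an order of the 4 groups, Pik3r1 stood at 3.38 ± 0.30 (SD, n = 4) in gWAT of controls, at 2.34 ± 0.33 in the labelled KO arrays, and at 1.35 ± 0.48 and 1.29 ± 0.50 in BAT of controls and of KO mice. The 2 BAT groups were not separable by their spread. Pik3ca was highest in gWAT of controls at 1.26 ± 0.21, and lowest in the labelled KO arrays at 0.19 ± 0.17, with BAT of controls next at 0.34 ± 0.23 and overlapping them. Akt1 was at 3.92 ± 0.12 in gWAT of controls, and the labelled KO arrays at 4.49 ± 0.050 lay among the KO BAT arrays at 4.48 ± 0.065. Akt2 was highest in BAT of controls at 6.78 ± 0.18 and lowest in BAT of KO mice at 5.68 ± 0.18, with the 2 gWAT groups between them at 6.22 ± 0.23 and 6.12 ± 0.21. Foxo1 ran from 5.04 ± 0.44 in BAT of controls through 4.31 ± 0.43 and 3.76 ± 0.31 in the gWAT groups to 3.10 ± 0.25 in BAT of KO mice.

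The log2 ratio of 2 probes on the same array does not change when the array is scaled by 1 factor. Its size does not compare the levels of the 2 genes, since probes differ in brightness, but its shift shows unequal change. For this, 4 pairs were compared in each tissue by the exact two-sided permutation test, 8 tests in all. The log2 ratio of Akt1 to Akt2 in BAT was -2.25, -2.15, -2.15 and -1.99 in controls and -1.36, -1.20, -0.93 and -1.33 in Adipo-Pgam1 KO mice, a shift of 0.93. In gWAT it was -1.96, -2.17, -2.65 and -2.45 in controls and -1.53, -1.87, -1.69 and -1.42 in the labelled KO arrays, a shift of 0.68. The groups did not overlap in either tissue (exact permutation p = 0.0286, Benjamini-Hochberg over 8 tests 0.0762), but with the mean of all probes the gWAT shift was 0.089. The ratio of Insr to Igf1r shifted by -1.17 in BAT, again without overlap (exact permutation p = 0.0286, adjusted 0.0762), and by -0.52 in gWAT with overlap (exact permutation p = 0.143). The ratio of Irs1 to Irs2 shifted by -0.03 in BAT and by -0.04 in gWAT. The ratio of Pik3r1 to Pik3ca shifted by -0.36 and 0.03. None of the 8 passed after adjustment. With 4 arrays against 4, a lone shift without overlap could reach only 0.229 in this test after adjustment over 8. The adjusted values therefore cannot decide on a single shift.

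**Figure D4:**
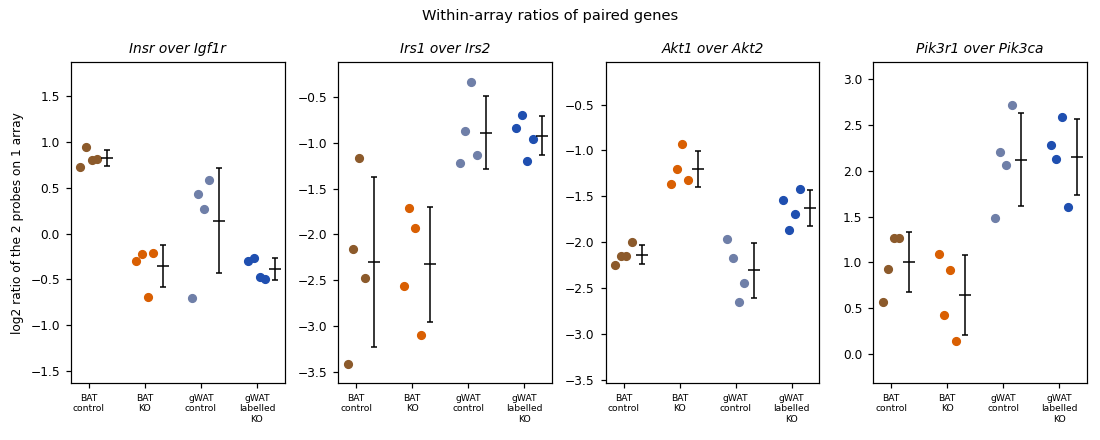
Log2 ratio of 2 brightest probes on the same array (vertical axis, 3.5 log2 units in each panel) in the 4 groups, with points for arrays and bars for the mean with the SD. The ratio of Akt1 to Akt2 is higher on the KO arrays in both tissues, from -2.25 to -1.99 against -1.36 to -0.93 in BAT, and the ratio of Irs1 to Irs2 overlaps in both.

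The wider pathway was described by 97 other genes in 8 lists. In BAT, 29 of the 88 tested rose and 32 fell in KO mice, together 69.3% against 61.4% of all genes, with a median of -0.16. In gWAT, 9 of the 90 tested were higher and 12 lower, 23.3% against 17.9% of all genes, with a median of -0.0029. With slide as a block 1 of the 90 passed in gWAT and none of those named below did. Named genes kept their direction under each scaling in both tissues. Inhibitors of the receptor, of PI3K and of Akt were higher in 11 and lower in 5 of 20 in BAT, with a median of 0.64. Some of the 11, Ptprf among them, were tested only because their probes were well above background on all KO arrays. This filter favours a call of higher, and the counts and the median carry it. Of all genes tested in BAT, 27.5% were higher and 33.9% lower, and spike-in scaling made 80.1% of those called higher. Trib3, a pseudokinase that binds Akt, was higher by 4.30 in BAT (standard error 0.23, limma, adjusted p = 5.68e-06) and by 2.85 in gWAT (standard error 0.41, limma, adjusted p = 0.00479). Ptprf, a receptor phosphatase, was higher in BAT and lower in gWAT (limma, adjusted p = 1.26e-05 and 0.0202). Its probe was well above background on only 1 of 4 BAT controls, so the size of the BAT change, 4.25 as fitted and 2.72 with normexp, depends on the background correction. In gWAT its change was -1.32, and -0.55 with slide as a block. In gWAT the same list had 3 higher and 4 lower, where 10% of all genes tested were higher and 7.86% lower. Inpp4b, a lipid phosphatase, was higher there by 1.40, and Grb14, an adaptor that blocks the insulin receptor, had a log2 change of -1.39 (limma, adjusted p = 0.0111 and 0.0143).

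Substrates and effectors of Akt were lower in 9 and higher in 1 of 12 in BAT, with a median of -0.52, where 33.9% of all genes tested were lower and 27.5% higher. Under spike-in scaling 4 were lower and 2 higher. Pde3b, the phosphodiesterase by which insulin restrains lipolysis, changed by -1.45, and Gys1, glycogen synthase, by -1.38 (limma, adjusted p = 3.26e-05 and 1.76e-05), which spike-in scaling reduced to -0.92 and -0.84, both still past the threshold. In gWAT 1 was higher and 2 lower, 25.0% against 17.9% of all genes tested. Adaptors were higher in 5 and lower in 5 of 11 in BAT, 90.9% against 61.4% of all genes tested. Among them Irs3, an adipose relative of Irs1 in rodents, changed by -2.87 in BAT (limma, adjusted p = 1.11e-05). Of 10 PI3K subunits other than the 2 members, 4 were higher and 2 lower in BAT, 60.0% against 61.4% of all genes tested. A gene among the 4 higher was tested only because its probe was well above background on all KO arrays. None of the 10 passed in gWAT, where limma gave an unadjusted p under 0.05 for 0 and quantile normalization called 1 lower. Pik3r5, the regulatory subunit of a PI3K typical of leukocytes, rose by 2.87 in BAT (standard error 0.40, limma, adjusted p = 3.48e-04), beside the macrophage markers given above. In the list of Akt-activating kinases and partners, 3 of 7 were lower in BAT, 42.9% against 61.4% of all genes tested. In gWAT 1 of the 7 was higher, 14.3% against 17.9%. Under spike-in scaling 2 of the 7 were higher in BAT and none lower. Of the ligands, binding proteins and receptors, 3 of 8 were higher and 1 lower in BAT, and 3 of 9 were lower in gWAT, where Igfbp5 changed by -1.26 (limma, adjusted p = 0.0241).

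Of the 18 FoxO targets tested in BAT, where Foxo1 itself fell, 5 were higher and 7 lower, with a median of -0.29. Of all genes tested in BAT, 27.5% were higher and 33.9% lower. Under spike-in scaling 7 were higher and 3 lower. Pck1, the enzyme of glyceroneogenesis, changed by -2.66 and Klf15 by -1.95 (limma, adjusted p = 1.51e-05 and 0.00153). Gadd45a, a stress response gene, rose by 5.22 (standard error 0.25, limma, adjusted p = 3.49e-06). Trim63, a ubiquitin ligase known from muscle, was not well above background on any BAT control and was tested only through the KO arrays. It was higher in Adipo-Pgam1 KO mice, by at least 19.5-fold with the reported background correction (limma, adjusted p = 4.29e-06). That bound sets the KO mean against each control array's lowest signal well above background. With normexp the log2 change was 3.27, so the bound depends on the background correction. The 7 skeletal muscle markers summed to between -1.32 and 0.12 in BAT of controls and to between -0.22 and 6.33 in KO mice. Of these, 3 were well above background on all 4 KO arrays, and Ckm, Myh4, Myh1 and Actn3 were on 2. Trim63 was well above background on all 4 KO arrays, at 0.32 with an SD of 0.58. The part of muscle in the Trim63 value was not tested. In gWAT, 3 of 19 targets were higher and 3 lower, 31.6% against 17.9% of all genes tested. Pdk4, which restrains glucose oxidation, rose by 2.09, Gadd45a by 1.39 and Sod2 by 0.94 (limma, adjusted p = 0.0198, 0.0372 and 0.0304), and Bcl6 and Cited2 changed by -1.14 and -1.1 (limma, adjusted p = 0.0215 and 0.0292). Foxo3 and Foxo6, the other FoxO factors tested, passed in neither tissue in limma, with an unadjusted p under 0.05 for 0 of them in either tissue. Spike-in scaling called 1 of them higher in BAT.

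**Figure D5:**
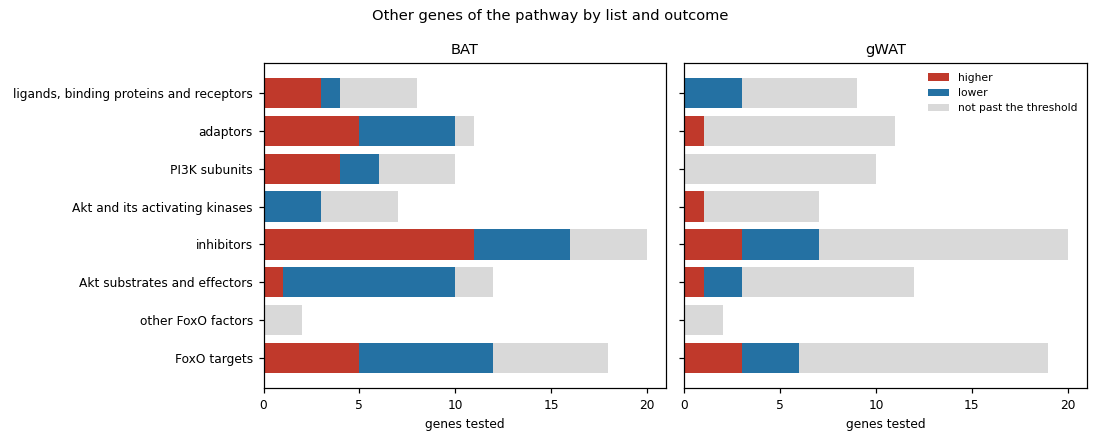
Number of genes tested in each pathway list (horizontal axis) that were higher, lower or not past the threshold in Adipo-Pgam1 KO mice or in the arrays so labelled, in BAT and gWAT. In BAT 9 of 12 substrates and effectors of Akt are lower and 11 of 20 inhibitors higher. Some of those inhibitors were tested only because their probes were well above background on all KO arrays. Of all genes tested in BAT, 33.9% were lower and 27.5% higher. In gWAT most genes of each list did not pass.

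Over all 16 arrays, the genes whose signal ran most like that of a member were taken from 12372 genes that were well above background on every array. These correlations describe 16 points in 4 groups, whose means differ. Akt2 had Slc25a23 and Acsl1 among the genes most like it, with Pearson correlations of 0.98 and 0.97. Acsl1 encodes an enzyme of fatty acid activation. Foxo1 ran most like Peli2, Glul and Sugct (0.95, 0.95 and 0.94), and Insr like Arl4a, Lman2l and Csad (0.95, 0.94 and 0.94). Irs1 ran most like Mical3, Phlpp2 and Zbtb5 (0.92, 0.92 and 0.91), of which Phlpp2 encodes a phosphatase of Akt. Irs2 had the loosest neighbours, Gm16973, Zxdc and E4f1 (0.83, 0.83 and 0.79). Pik3ca ran most like Gab3, Pnma2 and Gm20753 (0.94 each), and Pik3r1 like Zfp449, Asph and Cyld (0.96, 0.95 and 0.95). Akt1 ran most like Chchd10, Gtf2h2 and Polr2e (0.97, 0.94 and 0.94), and Igf1r like Miga1, Il20rb and Bex3 (0.89 each).

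Among the members, Akt2 and Foxo1 had a correlation of 0.84 over the 16 arrays and Akt2 and Insr one of 0.81. Taken as deviations from the group means, these were 0.12 and 0.63. Akt1 ran against Pik3ca and Pik3r1, with correlations of -0.85 and -0.82 over the arrays and -0.40 and -0.18 as deviations.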

How the data were processed

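Adipose RNA, extracted with a lipid tissue kit from both depots of each genotype, was hybridised by the authors to 16 one-colour Agilent mouse arrays, 4 in each group. The deposited scanner files hold spot intensity as read by Agilent Feature Extraction 10.7.1.1, where the processed intensity is background-subtracted and spatially detrended. The deposited value table, used as an alternative, holds intensity normalized by the authors, close to the 75th percentile of each array, on a linear scale.

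Groups were taken from the labels, which do not say that the arrays of a group came from separate mice, so p-values measure the spread among these samples. Processed intensity was taken to log2 after division by each array's 75th percentile, control spots left out. Of 35886 probes with a RefSeq accession, 91.9% matched a symbol, and the brightest probe stood for each gene, with 17 genes left out for irregular spots. A gene was tested if some group in the comparison had it well above background on each of its 4 arrays. Genotypes within a tissue, tissues within controls and the interaction over 16 arrays were tested with limma 3.58.1 in R 4.3.3, with Benjamini-Hochberg adjustment over all genes and a threshold of 0.05. Scripts were tested on simulated data. The number of arrays limits the precision.

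Named genes were all 9 members with every probe, Pgam1, the 5 pathway genes with the largest rise and the 5 with the largest fall in each tissue among those called without overlap, and the 3 genes most like each member, of which 1 for Akt2 is not reported here. Foxo3 and Foxo6 are named because they are the whole of a count. The members, lists and rules were chosen with earlier results of these data known. Of the marker lists not described with the results, T cell markers were higher in 2 of 4 in BAT, the 1 mesothelium marker tested was lower there, and no neutrophil, B cell or endothelial marker tested passed in either tissue. No T cell, mesothelium or fibroblast marker passed in gWAT. Alternatives were other scalings, normexp on median signals with an offset of 50 (no mean signal was used), the deposited value table, other probes, blocks for slide, scan day and replicate number, a joint fit, other variance settings, the methods' t-test, and leaving out arrays.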

Additional observations from a re-analysis of the deposited data

Results flagged for a closer look

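In 4 of the 36 groups of 4 arrays, 1 array of a member gene stood far from the other 3, by a test that chance meets in about 1 of 20 groups. Igf1r read 0.68 in gWAT control replicate 1, against -0.25 to -0.13 in the others. Foxo1 read 3.67 in the same array, against 4.47 to 4.57. Irs2 read 3.35 in gWAT control replicate 3, against 4.0 to 4.05. Akt2 read 6.51 in BAT control replicate 4, against 6.84 to 6.89, and this control alone shared a slide with the BAT arrays of Adipo-Pgam1 KO mice.

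For 5 members the change between genotypes differed between the tissues. The change in gWAT less that in BAT was -1.37 for Pik3ca, -0.98 for Pik3r1, 0.73 for Akt1, 0.99 for Akt2 and 1.40 for Foxo1 (limma interaction, adjusted p = 0.000121, 0.0484, 0.000305, 0.00137 and 0.00427). With slide as a block these were -0.78, -0.74, 0.58, 0.55 and 1.30, of which Akt1 alone passed (limma, adjusted p = 0.0499). For Pgam1 the difference was 2.69 (limma, adjusted p = 2.59e-06).

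Among the named pathway genes, the difference was positive for Irs3 at 3.57, Pdk4 at 3.05, Pck1 at 2.10, Sod2 at 1.86, Gys1 at 1.81, Klf15 at 1.27 and Pde3b at 0.72. It was negative for Gadd45a at -3.84, Cited2 at -2.53, Igfbp5 at -2.12, Pik3r5 at -1.82 and Trib3 at -1.46. Ptprf had a fitted difference of -5.58 and Trim63 one of -4.80, and neither is a bound. Both rest on BAT control arrays where the probe was mostly or always too dim to be well above background. In gWAT the Trim63 probe also fell short of that on some array of each group, so Trim63 was not tested there. The adjusted p of these 14 differences lay between 2.23e-06 and 0.0471 (limma interaction).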

How the results depend on the processing

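Akt2 and Foxo1 fell in BAT under every alternative tried. Of the recomputed counts and ratio shifts, 195 stayed within 1.5 times or on their side of the threshold, 17 did not and 13 turned sign. No ratio shift passed as reported, so a shift could shrink and still count among the 195. The shift of Akt1 over Akt2 in gWAT did so, from 0.675 to 0.089 with the mean of all probes. Shifts within the slide of the KO arrays had no p-value, so the threshold could not label them. The 195 therefore cannot show how stable the sizes of the shifts were. The members called in gWAT, 6 as reported, numbered 3 with arrays centred on medians, 0 with slide as a block and 2 with a replicate block. Those called in the interaction, 5 as reported, numbered 3 with quantile normalization, spike-in scaling or scan day as a block, and 1 with slide as a block. The other pathway genes called in gWAT, 21 as reported, numbered 12 with arrays centred on medians, 6 without a filter on dim probes, 1 with slide as a block, 6 with a replicate block, and 7 to 25 with 1 array left out.

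The labels do not say whether arrays with the same replicate number were paired. Correlations of same-numbered arrays, taken as deviations from group means, ran from -0.119 to 0.514, which cannot settle this. The replicate block took the genes called from 8766 to 8602 in BAT and from 2524 to 1082 in gWAT. Leaving out 1 array gave 1141 to 3231 genes called in gWAT, with 1180 and 1580 without control replicates 2 and 3, and 1166, 1282 and 1141 without labelled KO replicates 1, 2 and 3. Those called were 1380 with arrays centred on medians, 5150 with spike-in scaling and 184 with slide as a block. The interaction called 7154 genes, and 3261 and 4559 with slide and scan day as blocks. The methods' t-test called 8418 genes in BAT and 1614 in gWAT after Benjamini-Hochberg adjustment, and 9154 and 4669 without. Scan day could not be a block within a tissue, where it was 1 day or matched the slide.

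Some small changes turned sign. In BAT, quantile normalization gave 0.009 for Pik3r1 and 0.111 for Akt1, and spike-in scaling, under which the median gene moved by 0.453, gave 0.473 for Pik3r1, 0.367 for Akt1, 0.089 for Irs1 and 0.115 for Irs2. Akt1 was 0.138 with normexp, 0.037 with the mean of probes and 0.240 on its other probe, and Pik3ca was -0.024 with slide as a block. In gWAT, Akt2 was 0.014 with arrays centred on medians, 0.243 with spike-in scaling, where the median gene moved by 0.398, 0.119 with the mean of probes, and 0.190 and 0.276 on its other probes. Igf1r there was -0.221 with the mean of probes and -0.469 on its other probe, and Akt1 was -0.150 on its other probe. Between tissues, Akt2 was 0.099 with quantile normalization and 0.129 with normexp, Insr 0.002 with spike-in scaling and 0.033 on its other probe, and Akt1 0.230 on its other probe. In the interaction, Insr was -0.007 with spike-in scaling, -0.257 and -0.075 with slide and scan day as blocks and -0.105 on its other probe, and Akt1 was -0.390 on its other probe.

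With 1 array left out, the change ran from -0.068 to 0.241 for Igf1r in gWAT, and in BAT from -0.744 to 0.005 for Irs2 and from -0.258 to 0.171 for Pik3r1. The shift of Irs1 over Irs2 ran from -0.395 to 0.353 in BAT and from -0.144 to 0.150 in gWAT, and that of Pik3r1 over Pik3ca in gWAT from -0.179 to 0.233. Within the slide of the KO arrays these shifts were 0.149, 0.208 and -0.569, and that of Insr over Igf1r in gWAT was -0.960. Normexp gave -0.049 for Pik3r1 over Pik3ca in gWAT. The cause of these differences was not tested.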
